A study of Mus musculus with 3 samples.

Results

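Red blood cell and hemoglobin genes were followed through adult mouse hearts. The genes were Hba-a1, Hbb-b1, Hbb-b2, Alas2, Slc4a1, Epb4.2 and Ahsp, and every array probe that carries one of these names was taken. The array names 9 such probes, for 5 of the 7 genes, among 41174 probes with 28090 gene names. No probe is named Hbb-b2 or Ahsp. Of the 9 probes, 7 probes of 4 genes had a mean processed signal of at least 20 and were tested, among 29606 tested probes over the whole array.

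Gene expression was measured on 3 two-colour arrays, named replicates 1 to 3, of hearts from C57/BL6 mice aged 2 months. On each array the Cy5 (red) channel carries RNA pooled from 2 hearts labelled Lrrc10-/- and the Cy3 (green) channel RNA pooled from 2 hearts labelled Lrrc10+/+ (WT), with no dye swap. Lrrc10 encodes a cardiac leucine-rich repeat protein, and the knockout allele is carried by every cell of the animal, on a repeatedly backcrossed background. The study's methods describe 3 independent biological replicates, while the submitters' label for the Cy3 RNA is a heart reference pool. If the label means that 1 WT pool served several arrays, the spread between arrays holds less of the WT variation. Because hearts were pooled and dye goes with genotype, dye and genotype cannot be told apart, and p-values measure the spread between 3 array ratios only.

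Red blood cells carry hemoglobin, a tetramer of alpha and beta globin chains that each hold a haem group. Maturing red cells make the globin chains and the haem together, and lose their nucleus before they enter the circulation, so the youngest circulating red cells still hold globin mRNA. A heart contains blood in its chambers and vessels, and RNA from a whole heart therefore includes RNA of circulating cells. In such bulk RNA, more red cells and more globin RNA per red cell cannot be told apart. Whether the hearts were rinsed of blood is not given in the sources used here.

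The targeted gene was read first as a check of the labels. The Lrrc10 probe had processed signals of 476.5, 442.6 and 352.3 in Cy3 on replicates 1, 2 and 3, and of 14283, 20828 and 17703 in Cy5. Its log2 ratio of Cy5 over Cy3 was therefore 4.91, 5.56 and 5.65 (adjusted p = 2.62e-04, limma). The channel labelled Lrrc10-/- is the brighter for Lrrc10 on every array, which goes against the labels. Whether the probe lies inside the deleted part of the gene is not given in the sources used here. Directions below are therefore given by dye, with the label of the channel in parentheses where it helps, and a positive log2 ratio always means a brighter Cy5 signal, the channel labelled Lrrc10-/-.

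Several of the probes read nearly the same transcripts, so their sequences are shown first. Each is a 60-base oligonucleotide, printed 5′ to 3′. A pair of Hbb-b1 (adult beta globin) probes overlap by 29 bases, in capitals here, and a further Hbb-b1 probe lies elsewhere in the transcript and was the only Hbb-b1 probe that never saturated.
Hbb-b1 A_52_P260346: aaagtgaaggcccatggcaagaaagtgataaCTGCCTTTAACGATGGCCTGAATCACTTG
Hbb-b1 A_51_P374476: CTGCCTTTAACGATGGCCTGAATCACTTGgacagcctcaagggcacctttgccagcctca
Hbb-b1 A_51_P374468: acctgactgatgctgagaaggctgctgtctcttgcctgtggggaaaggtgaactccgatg

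These probes are not independent readings of Hbb-b1. No other pair of probes on the array that involved a member probe shared a run of 25 bases or more. In RefSeq (GRCm38.p6) the transcript accession given for the 4 Hbb-b1 probes belongs to Hbb-bt, one of the paired adult beta globin genes. The array's own gene name is kept here.

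The Hba-a1 (adult alpha globin) probe ends where the probe of its near-copy Hba-a2 begins. The 30 bases that line up are in capitals.
Hba-a1 A_52_P278538: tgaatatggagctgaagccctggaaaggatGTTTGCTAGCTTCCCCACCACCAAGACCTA
Hba-a2 A_52_P208681: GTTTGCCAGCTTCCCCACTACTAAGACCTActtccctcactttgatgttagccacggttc

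Within the aligned stretch the probes differ at 3 bases, T37C, C49T and C52T, with positions counted from 1 at the 5′ end of the Hba-a1 probe and the Hba-a1 base given first. How much each probe also binds the transcript of the other gene was not tested, so the alpha globin values may mix both genes, and the same holds for the beta globin pair.

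The globin spots were near or at the limit of the scanner. The scanner reports saturation at 65227 in Cy3 and 65245 in Cy5. The mean scanner signal of Hba-a1 in Cy5 was 65006, 65186 and 61093, beside 16112, 21535 and 37608 in Cy3. Its Cy5 spot carried the saturation flag on replicates 1 and 2, with 67.9% and 86.5% of pixels saturated, and not on replicate 3, with 26.2%. The Cy5 spots of Hbb-b1 probes A_51_P374476, A_52_P213909 and A_52_P260346 were saturated on all 3 arrays with every pixel saturated, and the Cy3 spots of A_51_P374476 and A_52_P260346 were also saturated on replicate 3. For these spots the Cy5 signal is a lower bound. Hbb-b1 A_51_P374468, Alas2 and Slc4a1 were free of saturation in both channels on every array.

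**Figure D1:**
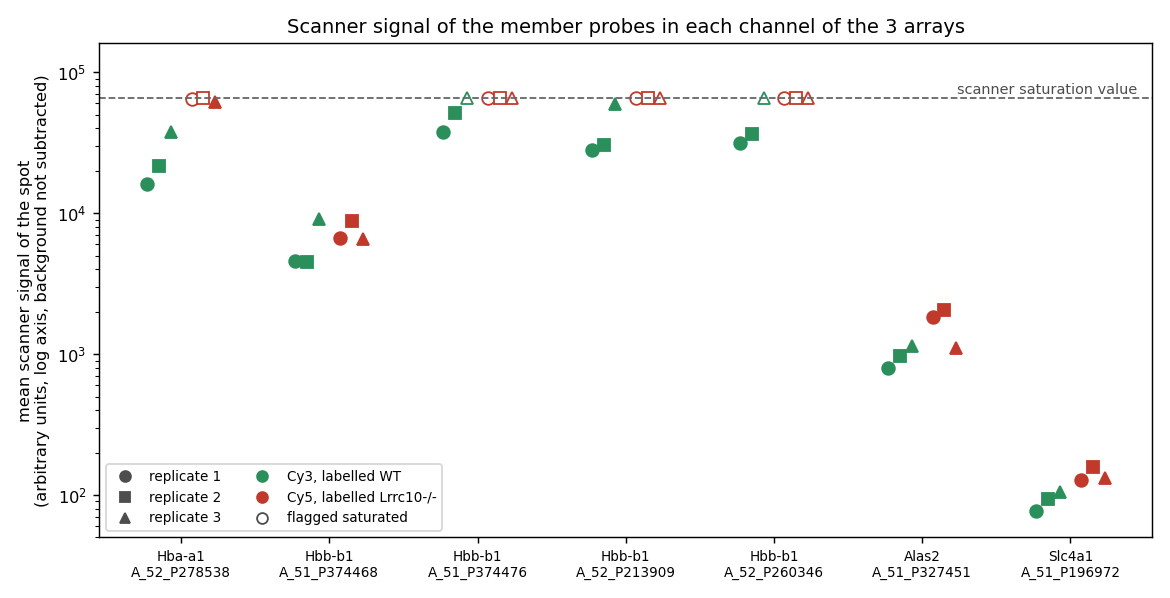
Mean scanner signal of each spot (arbitrary units, log axis, background not subtracted) for the 7 tested member probes, with Cy3 in green, Cy5 in red, a marker shape for each replicate and open markers where the spot was flagged saturated. The Cy5 spots of 3 Hbb-b1 probes lie on the saturation line on all arrays, whereas Alas2 and Slc4a1 lie far below it.

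The members showed no difference between the channels that passed the test. On replicates 1 and 2 most were brighter in Cy5 (labelled Lrrc10-/-), and on replicate 3 the deposited ratios of all were on the side of Cy3 (labelled WT), 3 of them from spots saturated in Cy5. After normexp background correction with median centring, all but the unsaturated Hbb-b1 probe were above 0 on that array. The median of all tested probes was then itself 0.20 there. Relative to it Hbb-b1 A_51_P374468 was at -0.445, Alas2 at -0.09 and Slc4a1 at -0.03, and the saturated probes were above it. Over the 4 tested genes, each taken by its brightest probe, the median log2 ratio was 0.54, 0.78 and -0.17 on replicates 1, 2 and 3, against 0.00, 0.01 and -0.01 over all tested probes. Over the 2 of these genes whose brightest probe was free of saturation, Alas2 and Slc4a1, it was 0.54, 0.81 and -0.17. None of the 7 member probes was called by limma with Benjamini-Hochberg adjustment over all tested probes, and every adjusted p was 1. Over the whole array 2 probes, 0.00676% of those tested, were called brighter in Cy5 and none, 0%, in Cy3. At an unadjusted p under 0.05, 1 member probe (Hba-a1) was called in Cy5 against a background of 1.55%, and none in Cy3 against 1.52%.

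Hba-a1 encodes the adult alpha globin chain. On replicates 1 to 3 its processed signal in Cy3 was 65610, 90775 and 107002, and its signal in Cy5 was 127783, 176794 and 105675. The Cy5 values are the higher on replicates 1 and 2. On replicate 3 the values almost coincide, but part of the Cy5 pixels were saturated there and none in Cy3, so the channels cannot be read as level. The log2 ratio was 0.96, 0.96 and -0.02, with a mean of 0.64 ± 0.57 (SD, n = 3, adjusted p = 1, limma). Since Cy5 pixels were saturated on every array, in 26.2% of the spot even on replicate 3, all 3 ratios are lower bounds and the sign on replicate 3 is not settled. The mean of Hba-a1 was 0.95 after normexp and loess and 1.42 after normexp and median centring (adjusted p = 0.689 and 0.0687, limma). Before any dye normalization the background-subtracted ratio of Hba-a1 was 2.02, 1.60 and 0.70 on the log2 scale, with the same limit in Cy5.

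Hba-a2, the paired alpha globin gene, is outside the named genes but reads the same chain, and no spot of its probe was marked saturated, though 1.67% of Cy5 pixels were saturated on replicate 2. Its processed signal in Cy3 was 61053, 82830 and 110941, beside 122177, 199346 and 108366 in Cy5. The log2 ratio of Hba-a2 was 1.00, 1.27 and -0.03, with a mean of 0.74 ± 0.69 (SD, n = 3, adjusted p = 1, limma).

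Hbb-b1 encodes the adult beta globin chain. The unsaturated probe A_51_P374468 had processed signals of 18067, 17198 and 24677 in Cy3 and of 18184, 34771 and 16891 in Cy5. The channels were level on replicate 1, Cy5 was the brighter on replicate 2 and Cy3 on replicate 3. Its log2 ratio was 0.01, 1.02 and -0.55, with a mean of 0.16 ± 0.79 (SD, n = 3, adjusted p = 1, limma). The spread between arrays was among the wider ones, since 12.2% of tested probes had an SD at least as large.

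The 3 saturated Hbb-b1 probes carried less information. Probe A_52_P213909 had log2 ratios of 0.22, 0.54 and -0.54, and A_52_P260346 had 0.46, 0.51 and -0.34. Probe A_51_P374476, the brightest, had -0.13, -0.19 and -0.61, and was the only member probe with ratios below 0 on all 3 arrays, as 11.0% of tested probes were. Its sign cannot be read, since Cy5 was saturated throughout, and before dye normalization its ratios were 0.79 and 0.35 on replicates 1 and 2. It shares 29 bases with A_52_P260346. In both, the mean Cy5 scanner signal was 65261 or 65262 on every array, so their Cy5 levels rest on the saturation value and the scaling of the array. On replicate 3 the Cy3 spot of A_52_P213909 also had 34.4% of its pixels saturated, so no fold bound is given for these 3 probes. The brightest probe stands for Hbb-b1 in the median over 4 genes above.

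Alas2 encodes the erythroid form of 5-aminolevulinate synthase, which catalyses the first step of haem synthesis in red cell precursors. The Cy3 processed signal was 2427, 2898 and 2590, and the Cy5 signal 3750, 5959 and 2073. The 3 Cy3 values lie close together, and the Cy5 values lie above them on replicates 1 and 2 and below them on replicate 3. The log2 ratio of Alas2 was 0.63, 1.04 and -0.32, with a mean of 0.45 ± 0.70 (SD, n = 3, adjusted p = 1, limma). The mean was 0.15 without replicate 2 and 0.83 without replicate 3. Alas2 had no saturated spot and signals far above background. After normexp and median centring its ratio on replicate 3 was 0.11, on the other side of 0 but below the median of 0.20 over all tested probes there.

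Slc4a1 encodes band 3, the chloride-bicarbonate exchanger of the red cell membrane. In Cy3 its processed signal was 110.8, 172.8 and 140.9, beside 151.4, 260.1 and 138.2 in Cy5, well above background in every channel. The log2 ratio was 0.45, 0.59 and -0.03, with a mean of 0.34 ± 0.32 (SD, n = 3, adjusted p = 1, limma). Replicate 3 was again the lowest array, by less than for Alas2.

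Epb4.2 encodes protein 4.2, which ties band 3 to the red cell skeleton. Its 2 probes had mean processed signals of 9.97 and 7.67, were not well above background in either channel of any array, and were not tested. Their ratios set 1 dim spot against another and give no fold. Ahsp, the chaperone that binds free alpha globin chains, has no probe under that name. A probe named Eraf, an older symbol of the same gene, was looked up after the values had been seen. Its Cy3 signal was 7.08, 7.47 and 41.4 and its Cy5 signal 25.4, 39.2 and 26.7, and it was well above background in Cy5 on 3 arrays and in Cy3 on 1. Its mean signal of 19.7 was just under the minimum of 20 and it was not tested. The Cy3 spot of replicate 3 was the highest of the 6 values.

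**Figure D2:**
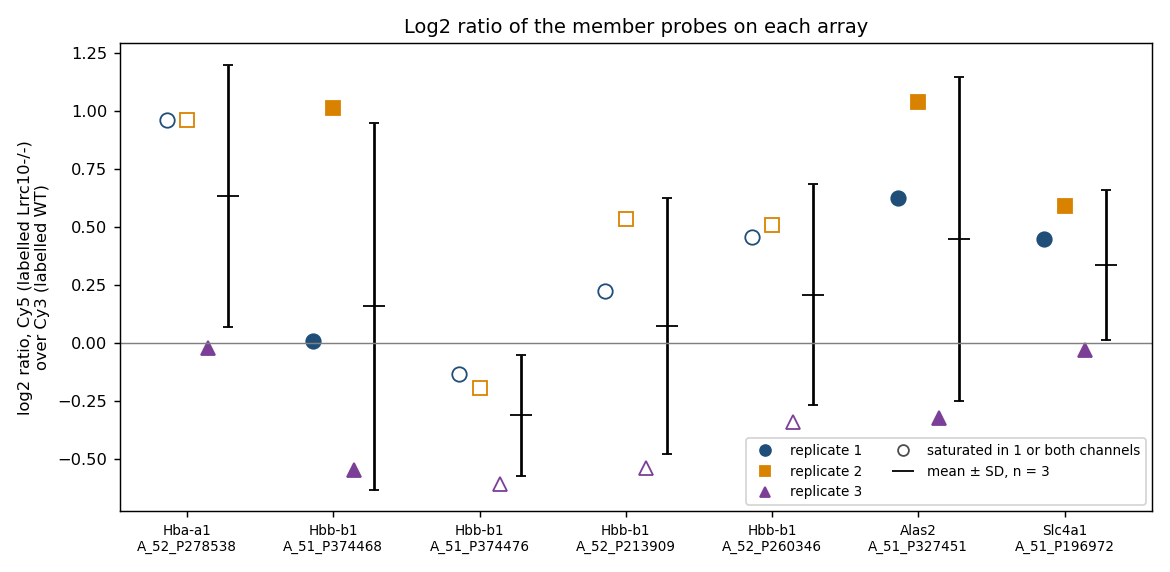
Log2 ratio of the Cy5 channel (labelled Lrrc10-/-) to the Cy3 channel (labelled WT) for the 7 tested member probes on each array, with open markers where a channel was saturated and bars giving the mean ± SD (n = 3). Replicate 3 is the lowest of the 3 arrays for every probe, which can be read for the 3 probes without open markers only, and the mean ± SD of the unsaturated Hbb-b1 probe and of Alas2 spans 0.

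Counted by sign, 6 of the 7 member probes were brighter in Cy5 on replicates 1 and 2 and in Cy3 on replicate 3, a pattern found in 13.3% of tested probes. No member probe was brighter in Cy5 on all 3 arrays, against 9.99% of tested probes. Replicate 3 gave the lowest ratio for 7 of 7 member probes, against 31.9% of tested probes. For the saturated probes (Hba-a1 and 3 of Hbb-b1) neither the sign on replicate 3 nor the order of the arrays can be read, since Cy5 is held by the scanner limit and the ratio follows Cy3 and the scaling. All 3 unsaturated member probes (Hbb-b1 A_51_P374468, Alas2 and Slc4a1) had the sign pattern, and replicate 3 was the lowest array for all 3. The sign pattern of these 3 did not hold up under other dye normalizations. After normexp and loess Alas2 alone of the 3 had it, with Hbb-b1 A_51_P374468 at -0.23, 0.72 and -0.83 and Slc4a1 at 0.26, 0.20 and 0.06. After normexp and median centring A_51_P374468 alone had it, and Slc4a1 stood at 0.17 on replicate 3. Relative to the array medians of that setting all 3 had it. The member probes share genes, cells and arrays and are not independent draws, and the patterns were picked out after the values were seen, so these shares are a description only. Over all 7 member probes the counts were as follows. After normexp background correction and median centring, 1 of 7 member probes had the pattern (background 7.91%), or 3 of 7 relative to the array medians of 0.11, 0.11 and 0.20 (background 7.4%). After normexp and loess 4 of 7 had it (background 11.6%), of which A_51_P374476 had not had it in the deposited ratios. Under both, replicate 3 was the lowest array for all 3 unsaturated probes (backgrounds 29.1% and 30.5%), also relative to the array medians (41.6% and 31.4%).

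The study's methods ask for a p under 0.05, a processed signal of at least 20 and a ratio of at least 1.2 in the same direction on every array. Here the p was read as that of each array, under 0.05 on all 3. No member probe passed, with limma's unadjusted p in its place either, against 0.405% of tested probes selected in Cy5 and 0.51% in Cy3. Array by array the count was different. On replicate 1, 4 of 7 member probes passed in Cy5 (background 12.2%) and none in Cy3 (13.0%). On replicate 2, 6 of 7 passed in Cy5 (18.9%) and none in Cy3 (18.6%). On replicate 3, none passed in Cy5 (14.9%) and 3 Hbb-b1 probes passed in Cy3 (13.7%). Of these, A_51_P374476 and A_52_P213909 were saturated in Cy5 on that array, so a brighter Cy3 can be read for A_51_P374468 only. For Alas2 the array p was 0.00307, 3.86e-06 and 0.119. These p-values describe the error of a spot within an array, not the spread between hearts. Without replicate 3, 4 of the 7 member probes (Hba-a1, Hbb-b1 A_52_P260346, Alas2 and Slc4a1) would have passed in Cy5, against 3.95% of tested probes under the same 2-array rule. By sign alone, 6 of 7 were then brighter in Cy5 on both arrays (background 23.3%) and 1 in Cy3 (22.4%).

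The channels were also read separately, after the levels were scaled between arrays (Aquantile, log2 units). Alas2 had levels of 11.37, 11.16 and 11.57 in Cy3 and of 11.99, 12.20 and 11.25 in Cy5. The Cy5 levels of Alas2 ranged over 0.95 and its Cy3 levels over 0.41, so that its differing ratios went with the Cy5 channel. Of the 3 unsaturated member probes it alone had the wider range in Cy5, a feature of 21.6% of tested probes. The Cy5 ranges of the saturated probes are held by the scanner limit and are not read here. The unsaturated Hbb-b1 probe had levels of 14.30, 13.74 and 14.75 in Cy3 and of 14.31, 14.76 and 14.21 in Cy5. Its ranges were 1.01 in Cy3 and 0.55 in Cy5, where the medians over all tested probes were 0.72 and 0.40. For Slc4a1 the ranges were 0.56 and 0.50. Without scaling between arrays all 3 had the wider range in Cy5, so for the unsaturated Hbb-b1 probe and Slc4a1 the channel that varied more depended on the scaling. The median ranges over all tested probes were then 0.88 in Cy3 and 0.67 in Cy5. The share of tested probes with the wider range in Cy5 was not counted without scaling.

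**Figure D3:**
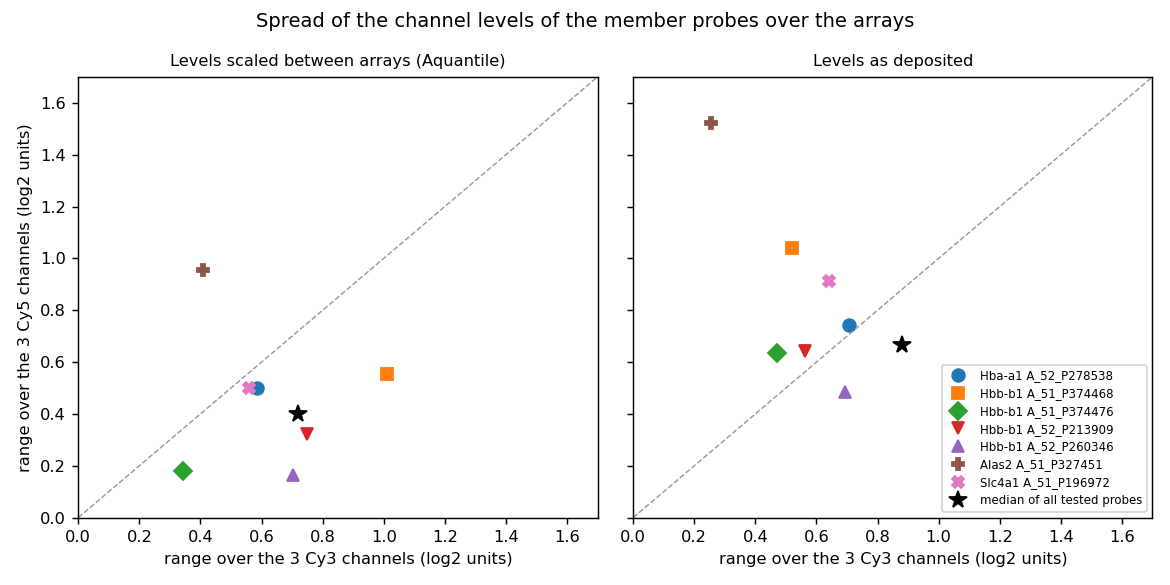
Range of the channel levels over the 3 arrays (log2 units), Cy5 against Cy3, for the 7 tested member probes and the median of all tested probes (star), with levels scaled between arrays on the left and as deposited on the right. Alas2 lies above the line of equal ranges in both panels, and the Cy5 ranges of the saturated Hbb-b1 probes and Hba-a1 are held by the scanner limit.

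Other globin genes were read as the closest relatives, from a list of 9 symbols of which 8 had a probe and 6 were tested. None was called by limma. Hbb-y, an embryonic beta-like globin, had log2 ratios of 0.72, 1.04 and -0.19, and Hbq1, a theta globin with a mean signal of 32.3, was well above background in Cy3 on 1 array only and gives no firm ratio. Ngb (neuroglobin) had 0.62, 1.25 and -0.34. Together with Hba-a2 these made 3 of the 5 genes well above background on every array with the sign pattern, against 13.3% of tested probes. With Hbq1 the count is 4 of 6. Whether the Hbb-y probe also binds adult beta globin RNA was not tested. Cygb (cytoglobin) was brighter in Cy5 on every array, at 0.70, 0.28 and 0.32. Mb (myoglobin), the oxygen-binding protein of heart muscle, was saturated in both channels on all 3 arrays. It passed the selection in Cy3, but its processed signals hold no fold. The list median was 0.71, 0.87 and -0.15.

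For haem synthesis outside Alas2, all 11 genes of that list were well above background on every array, and 0 of 11 had the sign pattern, against 13.3% of tested probes. Their median log2 ratio was -0.09, -0.15 and 0.10 on replicates 1 to 3. Alas1, the form of 5-aminolevulinate synthase found in all tissues, had 0.57, -0.69 and 0.32, opposite in sign to Alas2 on replicates 2 and 3. Among the largest mean ratios in size were those of Urod at -0.32 ± 0.24 and Alad at -0.22 ± 0.28 (SD, n = 3, adjusted p = 1 for each, limma). The enzymes of this list are made in every cell that makes haem, heart muscle included.

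Of the red cell membrane and skeleton genes, 14 of 19 symbols had a probe and 10 were tested. The list median was 0.02, -0.04 and 0.10, and 1 of 10 (Aqp1) had the sign pattern, against 13.3% of tested probes. Rhag, a red cell marker, had a mean signal of 7.45 and was not tested. Epb4.1 had a mean of 0.49 ± 0.38, Rhd of -0.51 ± 0.41 and Add2 of 0.21 ± 0.36 (SD, n = 3, adjusted p = 1 for each, limma). By array Rhd had -0.44, -0.14 and -0.94 and Spna1 0.10, -0.39 and -0.03, both well above background on every array. Epb4.1 probes differed in sign on replicates 1 and 2. Several genes of this list are also used by heart muscle or endothelium, and the part of those cells in the list was not tested.

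Among erythroid regulators and enzymes all 14 genes with a probe were tested and none was called. Their median log2 ratio was 0.11, 0.48 and -0.10. The sign pattern was found in 6 of 14, against 13.3% of tested probes, among them Trim10, Bpgm, Bnip3l, Tal1 and Gfi1b. Of the 11 genes well above background on every array, 6 had it. The others did not, with Epor at -0.27, -0.27 and -0.48 and Car1 at -0.56, 0.49 and -0.30. Tfrc had 0.01, 0.55 and 0.44, Mkrn1 -0.28, 0.47 and 0.34, and Car2 0.39, 0.74 and 0.10. Trim10, needed for the terminal steps of red cell maturation, had 0.88, 0.63 and -0.11, and Bpgm, which makes 2,3-bisphosphoglycerate in red cells, had 0.48, 0.54 and -0.08. The erythroid transcription factor Gata1 had 0.08, -0.06 and -0.45 at a mean signal of 44.1, and Nfe2 had 1.66, -0.08 and 0.73 at 35.2. Both were well above background in Cy3 on some arrays only. Klf1, the activator of beta globin, had a mean signal of 25.1, was well above background on 1 array in each channel, and gives no firm ratio.

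Genes that bind or break down free hemoglobin and haem were all tested. Hmox1 (haem oxygenase 1) had log2 ratios of 0.64, 0.51 and -0.26, and Cd163, the macrophage receptor for haptoglobin-bound hemoglobin, had 0.31, 0.22 and -0.38. These 2 of 7 had the sign pattern, against 13.3% of tested probes. The list median was 0.31, 0.22 and -0.38. Slc40a1, the iron exporter ferroportin, was brighter in Cy5 on every array, at 0.78, 0.33 and 0.56, with a mean of 0.56 ± 0.23 (SD, n = 3, adjusted p = 1, limma). Hpx (hemopexin) had a mean of -0.47 ± 0.18 at a signal of 25.2, well above background on 1 array in each channel.

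Markers of other blood cells were set beside the members because they enter the heart with the same blood. Platelet markers had median log2 ratios of 0.19, 0.86 and 0.33. The sign pattern of the members, found in 13.3% of tested probes, was that of 2 of 7 tested (Pf4 and Gp1bb). Their summed processed signal was 6550 to 14012 in Cy3 and 10508 to 17299 in Cy5. Pf4 had 0.10, 1.51 and -0.01 and Ppbp, also a platelet chemokine, 0.18, 1.29 and 0.74. Neutrophil markers had medians of -1.11, -0.02 and -0.17, with 0 of 4 tested in the pattern and sums of 1355 to 4808 in Cy3 and 854.5 to 4422 in Cy5. Lymphocyte markers had medians of -0.14, 0.30 and -0.38, with 2 of 7 in the pattern, Cd3g among them, and sums of 4831 to 6254 in Cy3 and 4564 to 5523 in Cy5. Cd3g had 1.14, 1.29 and -0.77, whereas Cd79b was selected in Cy3 at -0.59, -0.43 and -0.58. The part of platelets, lymphocytes and neutrophils in the member ratios was not tested.

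The tissue itself was checked on 7 cardiomyocyte markers and 6 endothelial markers, all of them well above background on every array. Of the cardiomyocyte markers 6 of 7 were saturated somewhere, so no median is given over their brightest probes, and their summed signal of 847188 to 1335880 in Cy3 and 755873 to 983276 in Cy5 is held by the scanner limit. The 6 probes of 3 of these genes (Tnnt2, Ryr2 and Atp2a2) that were unsaturated and well above background on every array were looked up after the values had been seen. Their median log2 ratio was 0.25, -0.86 and 0.46, below 0 on replicate 2 and above it on replicate 3. These probes ranged from -1.54 to 0.58 on replicate 2 and from -0.21 to 1.07 on replicate 3, and 0 of 6 had the sign pattern. Endothelial medians were 0.19, -0.40 and -0.25, with 1 of 6 (Emcn) in the pattern, against 13.3% of tested probes. The part of these cell types in the member values was not tested.

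**Figure D4:**
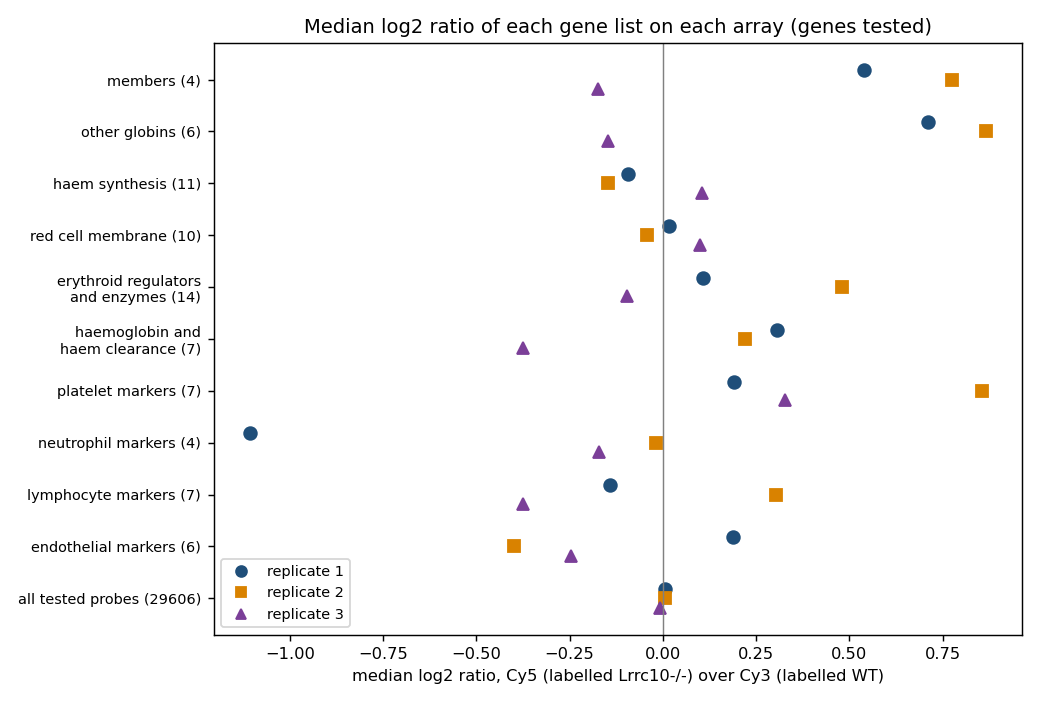
Median over each gene list of the log2 ratio (Cy5, labelled Lrrc10-/-, to Cy3, labelled WT) by array, with the number of genes tested in parentheses. Cardiomyocyte markers are left out because of saturation, and the member and other globin medians include saturated probes. Members, other globins, erythroid regulators and enzymes, and the genes of hemoglobin and haem clearance lie right of 0 on replicates 1 and 2 and left of it on replicate 3, whereas haem synthesis and red cell membrane genes lie between -0.15 and 0.10.

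The probes most like the members over the whole array were found from the mean profile of the 3 unsaturated member probes, 0.36, 0.88 and -0.30, by Euclidean distance over the 3 arrays. The 10 nearest of 25570 unsaturated probes well above background included F13a1, Car8, Tcl1, Ifi204 (with 2 probes), St8sia4, Wdfy1, Wnt9b and an unnamed transcript. F13a1, the A subunit of coagulation factor XIII, was the nearest at a distance of 0.0155, with log2 ratios of 0.37, 0.90 and -0.30. None of these 10 belongs to the erythroid lists. The nearest gene of those lists was Hbb-y at rank 430, with Bpgm at 469 and Car2 at 481. The platelet marker Gp1bb lay nearer than these, at rank 252. With 3 arrays a profile has 3 values only, and many probes of other kinds lie as near to it.

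The adult globin genes and Alas2 lie on separate chromosomes, and the 150 bases before their start sites are shown from RefSeq (GRCm38.p6). Short motifs of erythroid promoters were searched on both strands and stand in capitals. They were CACCC (bound by Klf1 and related factors), the CCAAT box, the TATA box as TATAA, and the site of Gata1 as AGATAA.
Hba-a1, chr11:32283522-32283671, plus strand: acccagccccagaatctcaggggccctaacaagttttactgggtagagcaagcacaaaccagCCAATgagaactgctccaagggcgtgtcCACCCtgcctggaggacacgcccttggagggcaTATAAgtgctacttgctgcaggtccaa
Hbb-bt, chr7:103813924-103814073, minus strand: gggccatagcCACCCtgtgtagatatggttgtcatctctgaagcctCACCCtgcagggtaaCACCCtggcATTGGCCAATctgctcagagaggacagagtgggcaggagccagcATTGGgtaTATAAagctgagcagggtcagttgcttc
Alas2, chrX:150547267-150547416, plus strand: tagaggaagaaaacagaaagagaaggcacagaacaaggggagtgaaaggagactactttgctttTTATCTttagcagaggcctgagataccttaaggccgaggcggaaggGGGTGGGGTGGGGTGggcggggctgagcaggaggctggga

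The Hba-a1 promoter holds 1 CACCC, 1 CCAAT and 1 TATAA, and the Hbb-bt promoter 3 CACCC, 3 CCAAT, of which 2 lie back to back on opposite strands, and 1 TATAA. The Alas2 promoter holds 3 CACCC on the opposite strand and 1 AGATAA on the opposite strand, and none of the other letters searched. The Epb4.2 promoter, not printed here, holds 1 TATAA on the opposite strand and none of the other letters searched. Of 32851 promoters of the same length, 37.4% hold CACCC, 24.5% CCAAT, 5.65% AGATAA and 14.2% TATAA. The promoters of Hba-a1 and Hba-a2 were identical over the 147 bases that line up, so no base of this window tells the alpha globin genes apart. A match of letters is a description of the sequence and not a measured site.

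The precision of these values is set by the number of arrays. The array carries 245 probes in 10 copies, and within an array their log2 ratios had a median SD of 0.085. Between arrays the median SD over all tested probes was 0.385. The SD of the member probes between arrays ran from 0.26 to 0.79. The log2 ratios of all tested probes correlated between arrays at r = 0.10 (replicates 1 and 2), -0.04 (1 and 3) and -0.18 (2 and 3), across probes, which are not independent replicates.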

How the data were processed

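Heart RNA was measured on Agilent Whole Mouse Genome 4×44K two-colour arrays. The authors deposited Feature Extraction 9.1.3.1 output for each array: intensity values (mean scanner signal, and processed signal after background subtraction and lowess dye normalization), a log10 ratio of Cy5 over Cy3, and an array p-value from the scanner software's error model. The deposited series table held the same log10 ratios. Here log10 ratios were turned into log2, spots of a probe were averaged, control and outlier spots were left out, and saturated spots were kept. Of 45018 spots 43379 carry gene probes. Probes with a geometric mean processed signal of at least 20 over both channels and 3 arrays were tested against 0 with limma 3.58.1 in R 4.3.3 (intensity trend, Benjamini-Hochberg over all tested probes, threshold 0.05, two-sided). A gene in a list stands by its brightest probe. Channel levels were scaled with Aquantile. The fit was tested on simulated data, where it recovered none of the smallest changes simulated, which were larger than the mean ratios of the members.

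The members and lists were chosen with earlier results of these data known. Named were all member probes, Lrrc10, and from each list the genes called or selected and the 3 unsaturated ones with the largest mean ratio in size, with the 10 probes nearest in profile. Other genes of the lists were named after their values were seen, where they carry a count. The alternatives were normexp (offset 50) with loess or median centring, no signal minimum or one of 50, saturated probes left out, a t-test as in the methods, no intensity trend, each array left out and the series table. Per the file headers the arrays share 1 slide and scan, so no batch comparison was possible. Some genes that these rules would name are not reported here.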

Additional observations from a re-analysis of the deposited data

How the results depend on the processing

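Of 132 recomputed values (other than leaving out an array), 119 kept their direction and side of the threshold or stayed within 1 SD or 1.5 times, and no member probe was called under any of them. Only the normexp settings recomputed the ratios of single probes, so much of that agreement was fixed in advance. The SD was that of a list median between arrays. Medians could therefore move far and still count as kept, as that of haem clearance did from 0.05 to 0.40 with median centring. The lowest adjusted p of a member probe over all settings was 0.0687 and the highest 1. The whole-array count of 2 called probes became 1 with normexp and loess, 1 with a signal minimum of 50, 0 with no signal minimum and 0 with the methods' t-test. With normexp and loess the unsaturated Hbb-b1 probe turned to -0.11 and the red cell membrane median to -0.054. Hba-a1 and Slc4a1 were then brighter in Cy5 on all arrays, and the share of all tested probes that were so was not counted. With normexp and median centring the median of all tested probes was 0.16, and 0.11, 0.11 and 0.20 on replicates 1, 2 and 3. There Hbb-b1 A_51_P374476 turned to 0.37, Hba-a1 had 1.42, and the medians of haem synthesis and red cell membrane genes were 0.28 and 0.29. All member probes but the unsaturated Hbb-b1 probe were then brighter in Cy5 on all arrays, the saturated ones among them. The share of all tested probes that were so was not counted. With saturated probes left out, 0 of the 3 member probes that remained kept 1 direction, against 9.99% of tested probes in Cy5 and 11.0% in Cy3. Without scaling between arrays these 3 had the wider range in Cy5. The median ranges over all tested probes were then 0.88 in Cy3 and 0.67 in Cy5. The cause of these changes was not tested.

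Leaving out each array in turn gave 0 to 545 called probes over the whole array (545 without replicate 3, 1 without replicate 1 and 0 without replicate 2). Member probes of 1 direction ran from 1 to 7 and member probes passing the selection from 0 to 4, the upper values without replicate 3. There 6 member probes were brighter in Cy5 on both arrays and 1 in Cy3, against 23.3% and 22.4% of tested probes, and the 4 selected compare with 3.95%. Without replicate 1, 0 were brighter in Cy5 and 1 in Cy3, against 21.9% and 22.2%. Without replicate 2, 0 were brighter in Cy5 and 1 in Cy3, against 25.8% and 26.2%. In Cy5 the selection took 2.25% of tested probes without replicate 1 and 1.94% without replicate 2, and in Cy3 1.48% and 2.15%. The unsaturated Hbb-b1 probe ran from -0.27 without replicate 2 to 0.51 without replicate 3, and A_52_P213909 from -0.16 to 0.38. Alas2 ran from 0.15 without replicate 2 to 0.83 without replicate 3, Hba-a1 from 0.47 to 0.96 and Slc4a1 from 0.21 to 0.52. The median of the member genes ran from 0.18 without replicate 2 to 0.68 without replicate 3, and that of red cell membrane genes from -0.12 without replicate 1 to 0.082. Each ratio already sets the pool labelled Lrrc10-/- against the pool labelled WT on the same array, so the limma test of the ratios against 0 was paired by array. Saturated Cy5 spots bound the Hba-a1 ratio from below (spots marked saturated on replicates 1 and 2, some pixels on replicate 3) and leave 3 Hbb-b1 probes without a fold on replicate 3, and both Epb4.2 probes were too dim to measure.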
